A study of Homo sapiens with 6 samples.

Results

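Transcripts of 48 genes of the lysosome were compared between a clone of TE-1 cells in which EIF3C was stably knocked down and the parental cells. The genes were taken from a list of lysosomal hydrolases, lysosomal membrane and sterol-handling proteins and subunits of the proton pump. All 48 had a probe set with 1 gene symbol on the array, among 18132 such genes in all, and 45 of them were bright enough to be tested among 13599 tested genes. TE-1 is a cell line from a human oesophageal squamous cell carcinoma. The knockdown group had 3 arrays, all from 1 stable clone, and the control group had 3 arrays of parental cells without a described control construct. Both were grown in the same medium with foetal bovine serum. The labels call the arrays biological replicates and do not say whether they came from separate cultures, so p-values cover only the variation among these arrays and part or all of it may be technical. Differences between the clone and its parental line other than the knockdown cannot be told apart from the knockdown. EIF3C encodes a subunit of the eIF3 complex of translation initiation.

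Lysosomes are acidic organelles that break down proteins, sugars and lipids delivered by endocytosis and autophagy. Soluble hydrolases are made in the endoplasmic reticulum, tagged with mannose 6-phosphate and sorted to the lysosome, where the vacuolar proton pump (V-ATPase) supplies the acid pH that they need. Many of their genes carry an E-box with the core CACGTG near the start site, which the transcription factors TFEB, TFE3 and MITF can bind.

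The promoter stretches shown first are those that hold the 8-base form of this E-box, TCACGTGA, because their genes share it. These genes lie in several role groups, with MCOLN1 and LAMP1 in the same one. Sequences run 5′ to 3′ on the gene's strand, come from RefSeq (GRCh38.p14) and end at or before the annotated start site, with each CACGTG core in capitals. The lines give the stretches of GAA at chr17:80101485-80101575 (plus strand), MCOLN1 at chr19:7522563-7522623 (plus strand), CTSA at chr20:45891273-45891334 (plus strand), ATP6V0D1 at chr16:67481191-67481236 (minus strand) and LAMP1 at chr13:113297027-113297238 (plus strand). For contrast, the last line gives that of ATP6V0B at chr1:43974883-43974946 (plus strand), whose transcript was higher in the knockdown. That rise was 0.10, within 0.22, the largest difference among array control probe sets for non-human sequences. CTSD, NEU1 and CLCN7, which were lower in the knockdown, held the core without TCACGTGA and are not shown.
GAA: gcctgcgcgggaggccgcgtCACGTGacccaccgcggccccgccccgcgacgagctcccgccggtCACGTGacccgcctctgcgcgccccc
MCOLN1: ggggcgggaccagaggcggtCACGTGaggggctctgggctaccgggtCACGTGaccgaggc
CTSA: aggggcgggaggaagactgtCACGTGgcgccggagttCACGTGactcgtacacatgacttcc
ATP6V0D1: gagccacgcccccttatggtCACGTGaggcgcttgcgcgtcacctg
LAMP1: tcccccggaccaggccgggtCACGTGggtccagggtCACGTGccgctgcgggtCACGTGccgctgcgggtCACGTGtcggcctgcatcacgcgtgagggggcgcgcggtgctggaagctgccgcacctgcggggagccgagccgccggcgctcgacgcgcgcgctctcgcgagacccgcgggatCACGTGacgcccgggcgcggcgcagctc
ATP6V0B: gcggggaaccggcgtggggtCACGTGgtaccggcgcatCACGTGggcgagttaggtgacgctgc

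RefSeq windows of 300 bases, from 250 before to 50 after the start site, matched 36 of the 48 genes. The core CACGTG, which reads the same on both strands, was in 10 of the 36 windows (27.8%), against 7.43% of 27305 windows in the table and 9.69% of 10979 windows of genes tested here. The longer form TCACGTGA, which contains the core, was in 5 of 36 windows (13.9%), against 1.8% of the windows of tested genes. The longest form searched, GTCACGTGAC, was in those of GAA and MCOLN1. LAMP1 held 6 cores, 1 of them across the start site, and all 5 genes with TCACGTGA were lower in the knockdown. The core was in 8 of 21 windows of members called lower, in 1 of 5 called higher and in 0 of 8 not called, and CTSF, which was not tested, held it too. These counts stand beside calls of lower for 64.4% of the tested members and 34.1% of all tested genes. Neither form was counted by call over all tested genes, so whether the motif goes with a call was not tested. TPP1, GUSB and GLB1, which fell, had no core in their windows. These are matches of letters in a window, and binding was not measured.

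EIF3C itself was lower in every knockdown array. On its brightest probe set the log2 signals were 10.69, 10.60 and 10.56 in control and 8.42, 8.41 and 8.49 in knockdown, which left 22.1% of the control level (limma, adjusted p = 6.58e-15). All 5 of its probe sets are shared with the near-identical EIF3CL. The bright ones left 21.5%, 22.1% and 22.6% of control, and the dim ones, at 4.53 and 4.39 in control, left 51.1% and 66.9%. The array medians lay between 6.09 and 6.11 on the log2 scale, and correlations over probe sets were at least 0.9977 within groups and at most 0.985 between them. Of 9 squamous or epithelial markers measured, KRT8, KRT18, KRT19, CDH1, EPCAM and DSP had control means above 10, whereas KRT5, KRT14 and SOX2 lay at 5.91, 5.85 and 5.77, below 7.61, the median of tested genes. KRT8, KRT18, CDH1 and EPCAM were called higher, by 0.26, 0.12, 0.23 and 0.21, and KRT19, DSP and SOX2 lower, at -0.55, -0.40 and -0.25. Macrophage markers, whose cells are rich in lysosomes, were not called in 3 of 3 tested and were too dim to test in 5, among them PTPRC and CD14. Their summed linear signal ranged from 245 to 276 in control and from 246 to 260 in knockdown. Fibroblast markers summed to between 162 and 181 in control and between 165 and 178 in knockdown, and endothelial markers to between 211 and 227 and between 228 and 232. Among them COL1A1, of fibroblasts, was called lower at -0.21, and of the endothelial genes CDH5 was called higher at 0.46 and KDR lower at -0.26. Squamous and epithelial markers summed to between 34226 and 35523 in control and between 35743 and 36096 in knockdown. The part of these shifts in the results was not tested.

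Most of the 48 lysosomal genes were lower in the EIF3C knockdown. In bulk RNA, fewer cells with a transcript and less of it per cell cannot be told apart. Of the 45 tested, 29 fell and 8 rose (limma with Benjamini-Hochberg adjustment over all tested genes, adjusted p below 0.05). Calls were common in these data, with 66.5% of all tested genes called, 34.1% lower and 32.4% higher. The members were called in 82.2% of cases, 64.4% lower and 17.8% higher. Their median log2 fold change, knockdown minus control, was -0.33, beside -0.03 for all tested genes. Knockdown and control arrays did not overlap for 39 of the 45, or 86.7%, beside 70.3% of all tested genes. Most changes were smaller than 2-fold. On the brightest probe set, only TPP1 and ATP6V1C1 fell by more than that, 2 of 45 genes, beside 2.22% of all tested genes. A rise of that size was found for 0 of 45, beside 2.6%. A called change of at least 0.5 in log2 size was found for 14 members (31.1%) and for 21.8% of all tested genes. Array control probe sets for non-human sequences, which carry no difference between the cells, ranged from -0.22 to 0.20. Within 0.22 in size lay 4 called members, CLCN7, ATP6V0A1, ATP6V0B and ATP6AP1, and 15.7% of all tested genes were called at such a size.

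**Figure D1:**
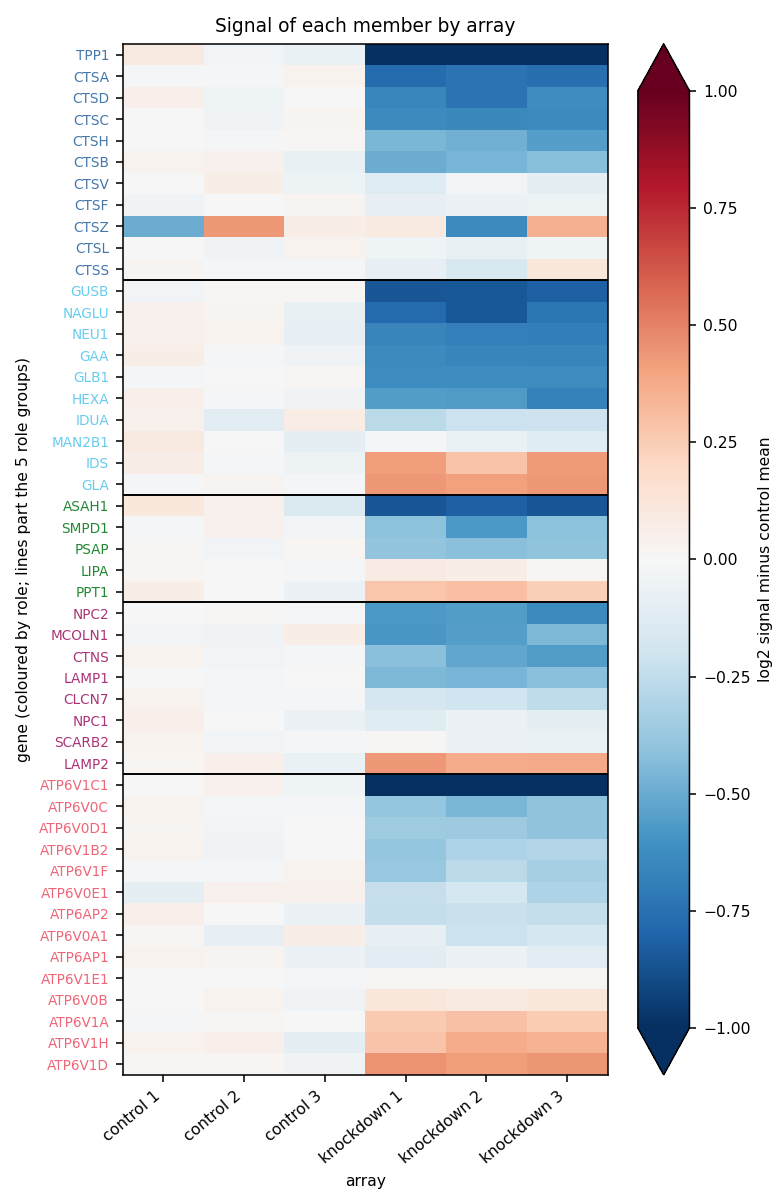
Log2 signal of the 48 genes on each of the 6 arrays (columns), as the difference from the mean of the 3 control arrays, with blue for lower and red for higher and the scale cut at 1 in either direction. Genes are grouped by role and sorted by their fold change. The 3 knockdown columns are alike for most genes, and CTSZ varies within both groups.

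Soluble proteases fell or were not called, and none rose. Of 11, 9 were tested and 6 fell, with a median of -0.49 over the 9. The share called, 66.7%, was near the 66.5% of all tested genes. All of these calls were lower, beside 34.1% lower for all tested genes. TPP1, tripeptidyl peptidase, had the largest fall, with log2 signals of 8.41, 8.28 and 8.25 in control and 7.18, 7.19 and 7.14 in knockdown. The knockdown arrays all lay about 1 log2 unit below the lowest control. The difference was -1.14 (SE 0.05, adjusted p = 4.43e-12, n = 3 each), and 45.4% of the control signal remained. All 9 of its probe sets were called lower, by differences from -1.14 to -0.30. The brightest gave the largest fall, and the next largest was -0.86.

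CTSA, the protective protein that stabilises beta-galactosidase and neuraminidase in a complex, read 10.97, 10.98 and 11.02 in control and 10.22, 10.25 and 10.23 in knockdown. It fell by 0.75 (SE 0.03, adjusted p = 1.25e-13). The aspartic protease cathepsin D, encoded by CTSD, read 8.67, 8.57 and 8.62 in control and 7.970, 7.882 and 7.997 in knockdown. CTSD fell by 0.67 (SE 0.04, adjusted p = 7.31e-10), with no overlap between the groups, and its 3 probe sets agreed within -0.71 to -0.67. CTSC, which activates granule serine proteases, fell by 0.64 and the aminopeptidase CTSH by 0.49. CTSB fell by 0.46 on its brightest probe set, which read 10.22, 10.22 and 10.10 in control and 9.69, 9.72 and 9.76 in knockdown. A further probe set of CTSB fell by 1.48, from a mean of 8.69 to 7.21, and the remaining ones by 0.53 and 0.45. The direction was thus shared by all 4 of its probe sets and the size was not.

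The endopeptidase CTSL and its close paralogue CTSV were not called. CTSL differed by -0.05 (95% interval -0.12 to 0.01, adjusted p = 0.118) and CTSV by -0.08 (-0.18 to 0.02, adjusted p = 0.133). With quantile normalization CTSL was called lower, at -0.11 (limma, adjusted p = 0.00705). CTSV was called lower with quantile normalization (adjusted p = 0.0230), with array weights (adjusted p = 0.0292) and without control replicate 3 (adjusted p = 0.0456). Whether their probe sets separate the paralogues was not analysed here. CTSZ, a carboxypeptidase, varied most within the groups. Its single probe set read 8.89, 9.81 and 9.45 in control and 9.48, 8.75 and 9.74 in knockdown, so the groups overlapped and its 95% interval ran from -0.49 to 0.37. CTSF and CTSS were too dim to test, with control means of 3.74 and 4.53 and differences of -0.06 and -0.04.

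The group of glycosidases, which also holds the sulfatase IDS, had the lowest median of the role groups, although IDS itself rose. Of 10, 9 were tested, 6 fell and 2 rose, with a median of -0.63. The share lower was 66.7%, beside 34.1% of all tested genes, and the share higher 22.2%, beside 32.4%. GUSB, beta-glucuronidase, read 10.16, 10.20 and 10.19 in control and 9.32, 9.33 and 9.37 in knockdown, a fall by 0.84 (SE 0.03, adjusted p = 1.83e-13). NAGLU, which removes N-acetylglucosamine from heparan sulfate, read 8.09, 8.07 and 7.97 in control and 7.26, 7.19 and 7.32 in knockdown. It fell by 0.78 (SE 0.05, adjusted p = 7.35e-10). In both genes every knockdown array lay well below every control array.

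The neuraminidase NEU1 read 9.36, 9.35 and 9.24 in control and 8.66, 8.64 and 8.63 in knockdown, a fall by 0.68 (SE 0.04, adjusted p = 9.46e-11). GAA, acid alpha-glucosidase, fell by 0.65, GLB1, beta-galactosidase, by 0.63 and HEXA, the alpha chain of beta-hexosaminidase, by 0.60. NEU1, GLB1 and CTSA encode the partners of 1 lysosomal complex, and they left 62.5%, 64.8% and 59.3% of their control levels. HEXA was lower on 8 of 8 probe sets, with differences from -0.60 to -0.40. A dim probe set of GAA, at 4.64 in control, was not called and differed by -0.10.

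GLA and IDS rose in this group. GLA, alpha-galactosidase A, read 9.55, 9.59 and 9.55 in control and 9.99, 9.97 and 10.00 in knockdown, a rise of 0.42 (SE 0.03, adjusted p = 9.03e-10). IDS, which removes sulfate from iduronate, read 8.98, 8.89 and 8.86 in control and 9.33, 9.19 and 9.33 in knockdown. It rose by 0.37 (SE 0.04, adjusted p = 7.27e-07). Its brightest probe set gave the smallest rise of 6, all of them called, and the largest was 1.04, a 2.06-fold difference. The alpha-mannosidase MAN2B1 was not called (-0.07, 95% interval -0.20 to 0.06). IDUA, the partner of IDS in heparan sulfate breakdown, was too dim to test, with a control mean of 4.53 and a difference of -0.23. In the fit over all human probe sets its single probe set was called lower (limma, adjusted p = 0.0423).

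Lipid-degrading enzymes and their activator went both ways. Of 5, all tested, 3 fell and 1 rose, with a median of -0.41. Lower were 60%, beside 34.1% of all tested genes, and higher 20%, beside 32.4%. ASAH1, acid ceramidase, read 9.60, 9.54 and 9.36 in control and 8.65, 8.69 and 8.64 in knockdown, a fall by 0.84 (SE 0.05, adjusted p = 1.51e-10). SMPD1, acid sphingomyelinase, read 6.55, 6.61 and 6.54 in control and 6.15, 5.99 and 6.16 in knockdown and fell by 0.47 (SE 0.07, adjusted p = 1.39e-05). PSAP encodes the precursor of the saposins, which present sphingolipids to some of the enzymes that degrade them.

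PSAP read 13.08, 13.05 and 13.09 in control and 12.68, 12.66 and 12.67 in knockdown. It fell by 0.41 (SE 0.02, adjusted p = 2.49e-12), and its 4 probe sets gave -0.53 to -0.41. PPT1, which removes palmitate from proteins, rose, from 10.09, 10.03 and 9.97 to 10.31, 10.33 and 10.27. The rise was 0.27 (SE 0.03, adjusted p = 1.00e-06) and was called on 6 of 6 probe sets. PPT1 and TPP1, both known for childhood neuronal storage diseases when defective, thus changed in opposite directions. LIPA, acid lipase, was not called (0.06, 95% interval -0.0043 to 0.12, adjusted p = 0.0938).

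**Figure D2:**
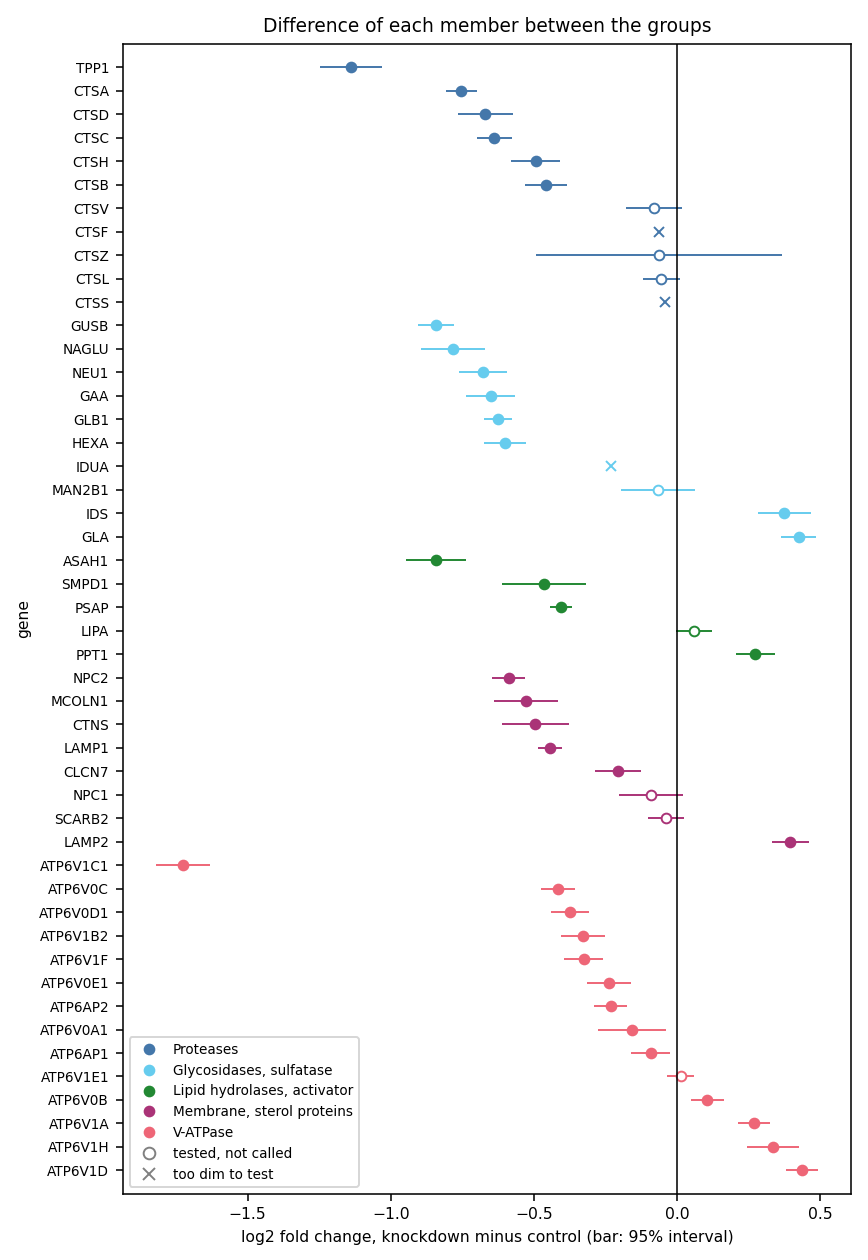
Log2 fold change of each of the 48 genes, knockdown minus control, with the 95% interval from limma (3 arrays a group) and colours by role. Filled points were called, open points were tested and not called, and crosses were too dim to test. The points run from -1.73 for ATP6V1C1 to 0.44 for ATP6V1D, with 29 filled points left of 0 and 8 to its right.

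Among 8 membrane and sterol-handling proteins, 5 fell and 1 rose, with a median of -0.32. That was 62.5% lower and 12.5% higher, beside 34.1% and 32.4% of all tested genes. NPC2, the soluble carrier that hands cholesterol to NPC1, read 10.81, 10.81 and 10.78 in control and 10.23, 10.24 and 10.17 in knockdown. It fell by 0.59 (SE 0.03, adjusted p = 5.88e-12). NPC1 itself was not called, at -0.09 (95% interval -0.20 to 0.02, adjusted p = 0.144). With quantile normalization it was called lower, at -0.12 (limma, adjusted p = 0.0461). The difference between NPC1 and NPC2 was not tested.

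MCOLN1, the calcium channel mucolipin, read 7.87, 7.86 and 7.96 in control and 7.31, 7.35 and 7.45 in knockdown, a fall by 0.53 (SE 0.05, adjusted p = 1.15e-07). A further probe set of MCOLN1 fell by 1.03. The cystine exporter CTNS read 7.56, 7.50 and 7.52 in control and 7.11, 7.01 and 6.97 in knockdown, and fell by 0.50 (SE 0.06, adjusted p = 4.44e-07) with 8 of 8 probe sets called lower. The abundant membrane glycoprotein LAMP1 fell by 0.44 and CLCN7, a chloride-proton exchanger, by 0.21. SCARB2, the receptor that carries glucocerebrosidase to lysosomes, was not called on its brightest probe set (-0.04, adjusted p = 0.251), while a probe set with a control mean of 8.39 rose by 0.79. The mean over its probe sets gave a rise of 0.18 (adjusted p = 0.00045).

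LAMP2 was the only one of 37 members with several probe sets whose probe sets were called in both directions, which 7.06% of all genes with several probe sets showed. LAMP2 is known to be spliced into forms that differ in their membrane span and tail, among them the receptor of chaperone-mediated autophagy. Its brightest probe set read 10.49, 10.52 and 10.41 in control and 10.91, 10.85 and 10.85 in knockdown, a rise of 0.39 (SE 0.03, adjusted p = 4.17e-09). Of 9 probe sets 4 were higher, by 0.39 to 0.54, and 5 were lower, by differences from -1.19 to -0.54. In each of the 9 the knockdown arrays lay on 1 side of all control arrays. The second brightest fell from 9.14, 9.13 and 9.09 to 8.55, 8.62 and 8.57. The mean over all probe sets turned the direction of LAMP2, to -0.33 (adjusted p = 1.98e-05), so LAMP2 has no single direction here. Which splice form each probe set reads was not analysed here.

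**Figure D3:**
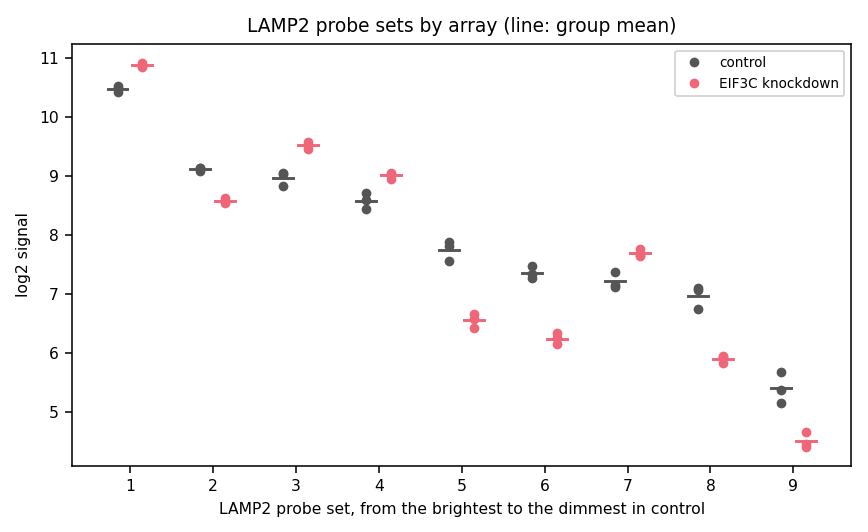
Log2 signal of the 9 LAMP2 probe sets, ordered by control mean, on the 3 control arrays (grey) and the 3 knockdown arrays (red), with lines at group means. Probe sets 1, 3, 4 and 7 are higher in the knockdown and the other 5 are lower.

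The V-ATPase has a membrane sector, V0, which conducts protons, and a cytosolic sector, V1, which hydrolyses ATP. Of its 14 genes, 9 fell and 4 rose, with a median of -0.19. Lower were 64.3%, beside 34.1% of all tested genes, and higher 28.6%, beside 32.4%. The share called was 92.9%, beside 66.5% of all genes, and the changes were small apart from that of ATP6V1C1. Only 1 of the 14 was called at 0.5 or more in log2 size, or 7.14%, beside 21.8% of all tested genes.

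ATP6V1C1 encodes the C subunit, which links the sectors and is released when the pump comes apart. It read 8.80, 8.83 and 8.76 in control and 7.10, 7.06 and 7.05 in knockdown. This was a 3.31-fold fall, to 30.2% of the control level (log2 difference -1.73, SE 0.04, adjusted p = 5.40e-15). The bright probe sets other than this gave -2.29, -2.20 and -1.75, and a dim one, at 2.83 in control, gave -0.20. No other of the 48 genes changed as much.

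The remaining V1 genes were split. The stalk subunit gene ATP6V1D read 10.18, 10.20 and 10.14 in control and 10.62, 10.59 and 10.62 in knockdown, a rise of 0.44 (SE 0.03, adjusted p = 1.95e-10). ATP6V1H, a regulatory subunit, read 8.71, 8.73 and 8.59 in control and 8.96, 9.04 and 9.02 in knockdown and rose by 0.34 (adjusted p = 2.23e-06). The catalytic subunit gene ATP6V1A read 10.10, 10.12 and 10.10 in control and 10.37, 10.39 and 10.36 in knockdown, a rise of 0.27 (adjusted p = 8.44e-08). Against these, ATP6V1B2, which pairs with the catalytic subunit, fell by 0.33 and ATP6V1F fell by 0.33. The peripheral stalk gene ATP6V1E1 was not called, at 0.01 (95% interval -0.03 to 0.06).

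Of 5 V0 genes, 4 fell and 1 rose, or 80% and 20%, beside 34.1% and 32.4% of all tested genes. The proteolipid gene ATP6V0C, which forms the rotor ring, read 10.87, 10.82 and 10.83 in control and 10.46, 10.38 and 10.44 in knockdown, a fall by 0.42 (SE 0.03, adjusted p = 5.83e-10). ATP6V0D1 read 9.86, 9.81 and 9.83 in control and 9.48, 9.47 and 9.43 in knockdown, and fell by 0.37 (SE 0.03, adjusted p = 1.00e-08). In both genes the groups stood clear of each other. ATP6V0E1 fell by 0.24, and ATP6V0B, a further rotor subunit gene, rose by 0.10 on its brightest probe set and by up to 0.24 on the others, all 6 of them called. Of the accessory subunits, ATP6AP2, the prorenin receptor, fell by 0.23.

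The calls of ATP6V0A1 and ATP6AP1 were weak. ATP6V0A1 differed by -0.16 (adjusted p = 0.0212) and ATP6AP1 by -0.09 (adjusted p = 0.0188), with overlapping groups in both. That of ATP6V0A1 was lost without control replicate 1 (adjusted p = 0.0537), control replicate 3 (0.0627), knockdown replicate 2 (0.0967) or its replicate 3 (0.0641), and also with array weights (0.0514). That of ATP6AP1 was lost without control replicate 1 (0.0711), control replicate 2 (0.0787), knockdown replicate 1 (0.072) or its replicate 3 (0.0653), without the intensity trend (0.0803) and with the mean of its probe sets (0.109).

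**Figure D4:**
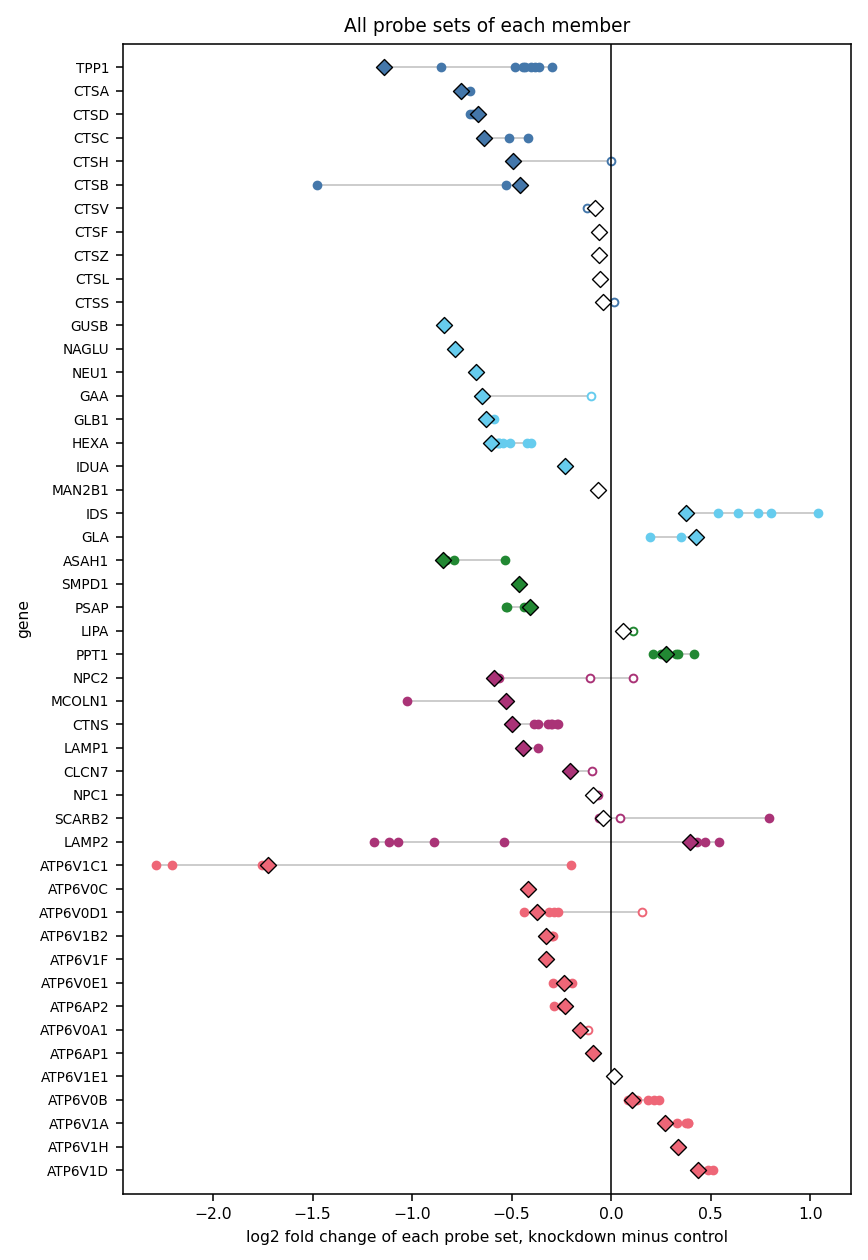
Log2 fold change, knockdown minus control, of every probe set of the 48 genes. Diamonds mark the brightest probe set, which stands for the gene, circles mark the others, and filled symbols were called in a fit over all human probe sets. LAMP2 has called probe sets on both sides of 0, and ATP6V1C1, CTSB and TPP1 have the widest spread on the lower side.

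The 48 genes had 158 probe sets, of which 97 were called lower, 35 higher and 26 not called. Over all human probe sets 48.2% were called in that fit. This share is without the brightness filter and was not split by direction, so it is not a matched reference. Of 31 called genes with several probe sets, 23 had every probe set called the same way as the brightest, a count not made over all genes. Of the remaining 8, LAMP2 was called both ways and the others had probe sets that were not called, such as the dim ones of CTSH and NPC2. The 11 genes with a single probe set, among them GUSB, NAGLU, NEU1 and ATP6V0C, have no such check.

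Further genes of the lysosome, on 6 lists named for their role, were also more often lower than higher. Of 121, 112 were on the array as single-symbol probe sets and 101 were tested, 62 fell and 19 rose, with a median of -0.20. The share called lower was 61.4%, beside 34.1% of all tested genes. Within 0.22 in size lay 23 of the 81 calls, beside 2141 of the 9037 calls over all tested genes. Of 20 further hydrolases, 15 fell and 3 rose, with a median of -0.36. That was 75% lower and 15% higher, beside 34.1% and 32.4% of all tested genes. DNASE2, the acid DNase, fell from 8.72 ± 0.03 to 7.35 ± 0.03 (mean ± SD, n = 3 each), a fall by 1.37 (adjusted p = 5.83e-14). GALC, which degrades galactosylceramide, fell by 0.98 and the protease gene CTSK by 0.89. LGMN, legumain, rose by 0.12 and SIAE by 0.15, where a further probe set of SIAE stood at -0.24 and was not called. LGMN had 2 of 6 probe sets called higher and 4 not called. The brightest probe set of SGSH rose by 0.19 and a further one was called lower, at -0.18, so SGSH had no single direction.

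Of 19 further membrane proteins, 12 fell and 3 rose, or 63.2% and 15.8%, beside 34.1% and 32.4% of all tested genes. The amino acid transporter SLC36A1 fell by 1.16, LAMP3 by 0.91 and TMEM9B by 0.57. The cation channels TPCN1 and TPCN2 rose by 0.61 and 0.35 and the tetraspanin CD63 by 0.23. SLC36A1 had 2 of 6 probe sets called lower and 4 not called, with differences from -1.16 to -0.04. TPCN2 had 1 of 3 probe sets called. Alternative subunits of the pump moved apart from each other. ATP6V0A2, an isoform of the large V0 subunit, rose by 0.98 (adjusted p = 7.50e-12) and TCIRG1, another isoform of it, fell by 0.87 (adjusted p = 6.13e-11), beside the difference of -0.16 for ATP6V0A1. ATP6V1B1 fell by 1.22, from a mean of 6.88 to 5.65, and NCOA7 fell by 0.80. ATP6V1C2, the other isoform of the C subunit, was dim, with a control mean of 5.28, and was not called (-0.10, adjusted p = 0.349). In all, 8 of 12 further pump genes fell and 3 rose, WDR7 by 0.20 and ATP6V1G1 by 0.19 besides ATP6V0A2. That was 66.7% lower and 25% higher, beside the same shares of all tested genes. DMXL1, counted as lower at -0.17, had probe sets called in both directions, within a range from -0.17 to 0.34.

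Genes that deliver enzymes to the lysosome fell in 15 cases of 25 and rose in 4, with a median of -0.17. That was 60% lower and 16% higher, beside 34.1% and 32.4% of all tested genes. GNPTAB, which encodes the enzyme that builds the mannose 6-phosphate tag, fell by 0.79. NAGPA, which uncovers the tag, fell by 0.75 and RAB7A, a late endosomal GTPase, by 0.73. The other probe set of NAGPA was not called, at 0.10. IGF2R, the large mannose 6-phosphate receptor, fell by 0.53, and M6PR, the small one, by 0.12. VPS26A, a retromer subunit, rose by 0.37, AP3B1 by 0.20 and AP3D1 by 0.17. Of the cathepsin inhibitors, 3 of 5 tested fell and none rose, with CST3, cystatin C, down by 0.40, CSTB by 0.29 and CST4 by 0.24. The share called, 60%, lay below the 66.5% of all tested genes, and the share lower above 34.1%.

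Regulators were mixed, with 9 of 20 lower and 6 higher and a median of -0.10. Their share called lower, 45.0%, was the smallest of the 6 lists, beside 34.1% of all tested genes. The share called higher was 30%, beside 32.4%. RRAGD and LAMTOR3, counted as higher at 0.27 and 0.20 on their brightest probe sets, also had probe sets called lower. Their probe sets ranged from -1.60 to 0.27 and from -0.29 to 0.20, so neither had a single direction. FNIP1, not called on its brightest probe set, also had probe sets called both ways. The transcription factor genes TFEB and TFE3 were not called, at -0.02 (adjusted p = 0.865) and 0.01 (adjusted p = 0.909), and both lay below the median signal of tested genes in control, at 7.28 and 6.47. MITF rose by 0.48 (adjusted p = 5.64e-08). MTOR rose by 0.77, although its probe sets ranged from -0.05 to 0.77, and LAMTOR4, a part of the Ragulator scaffold, rose by 0.90. FNIP2, a partner of folliculin, fell by 0.86, the GTPase gene RRAGB by 0.69 and TSC1 by 0.68. TSC1 had 2 of 4 probe sets called lower and 2 not called, with differences from -0.68 to 0.11. A transcript level of these regulators does not report their activity, which depends on phosphorylation and location.

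**Figure D5:**
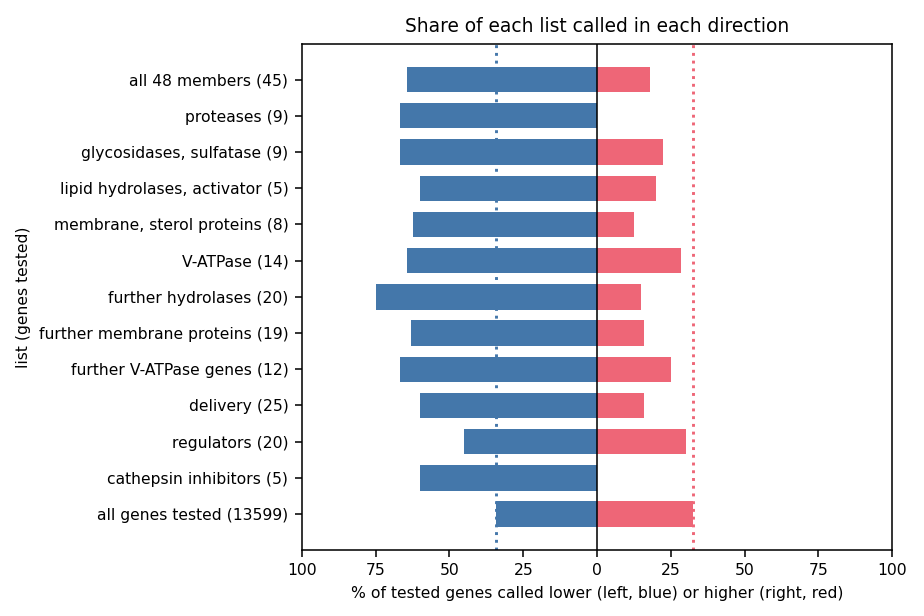
Percent of tested genes called lower (blue, to the left) and higher (red, to the right) in each list, with the number tested in brackets and dotted lines at the shares of all tested genes, 34.1% lower and 32.4% higher. The blue bars of the 12 lists reach past the dotted line, and the red bars of the 12 lists end short of it. The V-ATPase bar pools V0, V1 and accessory genes, and V1 alone had 3 of 7 genes lower and 3 of 7 higher, 42.9% each.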

How the data were processed

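The data are log2 signals from 6 Affymetrix arrays, 3 per group, in a table of 49395 probe sets as deposited by the authors. Per the submitters' processing notes the software was MAS5; the version, background correction and summarisation used were not given in the sources used here. That the scale is log2 was read from the values, 1.95 to 14.1. Array medians were nearly equal, so no further normalization was applied, and a change common to all genes would not be visible.

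Names came from the platform annotation, updated by Entrez ID to RefSeq symbols; 44988 probe sets carried 1 symbol. The brightest probe set over all 6 arrays stood for each gene, and the lowest 25% of genes by mean (below 4.635) were left out. Detection calls were not used, so dim does not mean absent. limma 3.58.1 in R 4.3.3 (lmFit, eBayes with intensity trend, group as the only term) compared the groups, with Benjamini-Hochberg adjustment over 13599 genes at 0.05. EIF3C and single probe sets were read from a fit over 49293 human probe sets. The script was tested on simulated data with 200 genes changed, far fewer than the 9037 called here. The number of arrays limits the precision.

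Members and lists were chosen with earlier results of these data known. All members are named; array values are given for the largest called changes of each role group, up to 3 in each direction (V-ATPase as 1 group), and for LAMP2. Of each further list, up to 3 called genes per direction are named. TFEB, TFE3, IGF2R, M6PR, ATP6V1C2, RRAGD, LAMTOR3, FNIP1 and DMXL1 were added after their values were seen. So were the array values of CTSB and CTSZ. Of 121 further genes, 9 had no single-symbol probe set and were not analysed here. Alternatives were no filter or one at 50%, quantile normalization, median centring, averaged probe sets, each probe set separately, no trend, robust eBayes, array weights, a replicate block and leaving out single arrays.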

Additional observations from a re-analysis of the deposited data

How the results depend on the processing

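Over 16 alternatives, 34 of the 37 called members kept their call and direction wherever they were tested; the exceptions were LAMP2, ATP6V0A1 and ATP6AP1. The number of members called lower ran from 27 to 33 and of those called higher from 8 to 9. The median log2 fold change of the members, -0.33, became -0.28 with no filter, -0.39 with quantile normalization, -0.28 with the mean of probe sets and -0.28 with every probe set on its own, and ran from -0.36 to -0.30 with each array left out. With quantile normalization ATP6V1E1 turned to -0.012. With the mean of probe sets LAMP2 turned to -0.33 and SCARB2 to 0.18; NPC1, CTSL, CTSV and SCARB2 gained a call as lower with quantile normalization. CTSZ ran from -0.31 to 0.22 with each array left out and turned to 0.15 without control replicate 2 and to 0.22 without knockdown replicate 2. EIF3C ran from -2.21 to -2.15 with each array left out. Other changes were calls gained or lost by members with differences of at most 0.16 in size; the cause was not tested. Arrays with the same replicate number deviated together with correlations of 0.08, 0.13 and 0.23. Correlations between different numbers were not computed, so these values do not decide whether the numbers are a pairing. The main fit used none. With the replicate number as a block the members gave 29 lower and 8 higher, the same counts as without it, and 9307 of all tested genes were called against 9037. Precision is limited by 3 arrays a group, and fold changes of dim genes are imprecise.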
